A study of Mus musculus with 55 samples.

Results

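Small nucleolar RNA (snoRNA) genes were followed across the cerebellum of mouse pups of 4 genotypes given chlorpyrifos oxon or its vehicle. They were taken as the genes whose single symbol in the probe annotation starts with Snord or Snora followed by a digit, with the probe set of highest mean used for each gene. The rule found 51 genes of 19938, of which 31 were Snord and 20 were Snora genes.

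Small nucleolar RNAs are short RNAs of the nucleolus that pair with other RNAs and guide their chemical modification. Those of the C/D box class, named Snord, guide ribose methylation, and those of the H/ACA box class, named Snora, guide pseudouridylation. Their main target is ribosomal RNA, and a few members serve instead in the cleavage of its precursor. Most mammalian snoRNAs are cut out of introns of a host gene, which is often a ribosomal protein gene or a gene that makes no protein.

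The mice were C57Bl/6 and were sampled at postnatal day 22, after daily injection under the skin from postnatal day 4 to 21. Chlorpyrifos oxon (CPO) is the active metabolite of the organophosphate insecticide chlorpyrifos, and paraoxonase 1 (Pon1) is an enzyme that hydrolyses it. CPO was given at 0.35 or 0.5 mg/kg/day, and the vehicle was dimethyl sulfoxide. The genotypes were WT (Pon1+/+), KO (Pon1-/-), Q192 (tgHuPON1Q192) and R192 (tgHuPON1R192), the last 2 carrying a human PON1 transgene of the glutamine (Q192) or arginine (R192) form. The sources used here do not name the promoter of the transgenes, and the genotype labels of the transgenic mice name no mouse Pon1 allele. Arrays numbered 6, 6 and 3 for vehicle, 0.35 and 0.5 in WT, 4, 5 and 3 in the same order in KO, and 4, 5 and 5 in both Q192 and R192. Every group held arrays of both array dates given in the descriptions. The labels do not say that each array is a separate animal, so the p-values reflect the spread between arrays, which may be technical.

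Values are log2 levels of probe sets on Affymetrix Mouse Gene 1.0 ST arrays, so a difference of 1 is a doubling. The number of arrays limits their precision. Differences were estimated with limma in a single fit of all 55 arrays, with array date as a covariate, with Benjamini-Hochberg adjustment of the p-values over the 14950 genes tested. The threshold was an adjusted p of 0.05, and adjusted p-values come from this fit unless a sentence names arrays left out, a single date or a permutation test. Of the 51 snoRNA genes, 46 passed the filter on low levels (mean above 6.44), 26 of the C/D class and 20 of the H/ACA class.

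Pon1 itself, the gene targeted in KO, went against that label. Its probe set read 5.19 ± 0.24 (SD, n = 15) in WT, and 10.08 ± 0.19 (SD, n = 12) in the arrays labelled KO, near 10.10 in Q192 and 10.13 in R192. Where its probes lie relative to the deleted part is not known, so KO is used below only as a label. Cerebellar markers were present throughout. The mean over 8 granule neuron markers was 9.60 to 12.07 in WT vehicle, 11.24 to 11.98 in WT 0.35 and 10.30 to 11.41 in WT 0.5. In the arrays labelled KO it was 11.13 to 11.66 with vehicle and 11.50 to 11.86 at 0.5. Over 3 Purkinje cell markers it was 9.99 to 11.87, 11.54 to 12.18 and 10.96 to 11.74 in WT vehicle, WT 0.35 and WT 0.5. The mean over 5 oligodendrocyte markers was 11.90 to 12.83 in WT vehicle, 11.10 to 12.31 in WT 0.35 and 12.15 to 12.33 in WT 0.5. Over 9 brainstem and midbrain neuron markers it was 7.37 to 8.37, 6.88 to 7.96 and 7.86 to 8.09 in the same order, and over 4 microglia markers 7.73 to 8.42, 7.44 to 7.96 and 7.95 to 8.17. Over 4 Bergmann glia and astrocyte markers it was 10.63 to 11.31, 10.78 to 11.10 and 10.68 to 11.03, and the single blood marker measured, Alas2, read 8.29 to 9.04, 7.98 to 8.95 and 8.02 to 8.33. WT vehicle replicate 4 was the lowest of its group on the granule neuron and Purkinje lists. Array KO 0.35 replicate 5 read 7.90 for Snord53, a gene at or below 6.79 in the other arrays labelled KO. Values without it are given beside the genotype results of Snord53, Snora16a, Snord42b and Snora23 and the 0.35 results of the arrays labelled KO. Tests of the host genes, neighbours and gene lists below include this array.

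Signals of different probe sets share no common scale, so the order below is one of probe set signals and not of RNA amounts. The highest mean over all arrays was that of Snord57 at 11.33, a methylation guide for small-subunit ribosomal RNA. It was followed by Snord14e at 10.48 and Snord22 at 9.76, snoRNAs linked to processing of the ribosomal RNA precursor, and by Snord15b at 9.54, a methylation guide for large-subunit ribosomal RNA. Snord49b at 9.43, Snora52 at 9.41, Snord16a at 9.25 and Snora23 at 9.22 completed the highest 8. The 5 lowest were Snord85 at 6.28, Snord52 at 6.19, Snord38a at 5.54, Snord58b at 5.36 and Snord118 at 5.09, and these were the 5 that fell under the filter. Just above it lay Snora41 at 6.47 and Snord37 at 6.48. The median of the 51 mean levels was 7.84, against 7.76 over all genes, and was 7.84 for the C/D and 7.78 for the H/ACA class.

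Of the members, 5 had a pair of probe sets, whose means were 7.07 and 7.00 for Snora21, 8.56 and 8.55 for Snora3, 7.69 and 7.69 for Snora30, 5.09 and 5.09 for Snord118, and 5.36 and 5.13 for Snord58b. The imprinted Snord115 and Snord116 families were not among the members. A further 41 snoRNA probe sets carried several symbols and were not used, 24 of them for copies of Snord116.

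The snoRNA genes were more variable within groups than most genes. Their median within-group SD was 0.18, against 0.14 over all genes, and was 0.23 for C/D and 0.17 for H/ACA members. The largest values were those of Snord16a at 0.40, Snord47 at 0.38, Snord33 at 0.36, Snord87 at 0.31, Snord58b at 0.30 and Snord49b at 0.30. The smallest was that of Snora73a, a processing snoRNA also known as U17, at 0.10. These SDs are taken around group means and include any difference between array dates. In the fit with date, the residual SD was 0.25 for Snord16a, 0.32 for Snord47, 0.23 for Snord33, 0.31 for Snord87 and 0.25 for Snord49b. Its median was 0.18 over the 46 tested members, against 0.13 over all genes tested.

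Snord53 was the member that separated the genotypes. This C/D box snoRNA lies in an intron of Wdr43, whose protein acts in biogenesis of the small ribosomal subunit. With vehicle, WT arrays ran from 6.30 to 6.69 with a median of 6.40, and the arrays labelled KO read 6.61, 6.36, 6.67 and 6.79. The Q192 arrays with vehicle read 7.31, 7.21, 7.40 and 7.74, and the R192 arrays read 7.61, 7.32, 7.37 and 7.64. All 8 transgenic arrays with vehicle thus lay above all WT and KO-labelled ones.

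At 0.35, WT arrays ran from 6.44 to 6.74 with a median of 6.62, and the arrays labelled KO read 6.62, 6.46, 6.60, 6.25 and 7.90. Q192 arrays read 7.39, 7.11, 7.66, 7.42 and 7.06, and R192 arrays read 7.43, 7.54, 7.75, 7.65 and 7.50. KO 0.35 replicate 5, at 7.90, was therefore above every transgenic array, while its 4 fellows were below them all. Its description number is shared with R192 0.35 replicates 3 and 4, and what this number stands for is not labelled.

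At 0.5, WT arrays read 6.68, 6.34 and 6.52 and the arrays labelled KO read 6.34, 6.43 and 6.34. Q192 arrays read 7.23, 7.67, 7.52, 7.48 and 7.48, and R192 arrays 7.73, 7.67, 7.31, 7.70 and 7.71. Again no array of the first pair of genotypes reached the second.

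Over the 3 treatments, Snord53 averaged 6.52 ± 0.15 (SD, n = 15) in WT, 6.61 ± 0.43 (SD, n = 12) in the arrays labelled KO, 7.41 ± 0.21 (SD, n = 14) in Q192 and 7.57 ± 0.15 (SD, n = 14) in R192. Without KO 0.35 replicate 5 the KO-labelled mean was 6.50 ± 0.17 (SD, n = 11). Snord53 was higher in Q192 than in WT by 0.89 (SE 0.097, adjusted p = 5.64e-09) and in R192 than in WT by 1.02 (SE 0.097, adjusted p = 9.97e-11). Against the arrays labelled KO it was higher by 0.83 in Q192 (SE 0.10, adjusted p = 1.75e-07) and by 0.96 in R192 (adjusted p = 5.03e-09). Without KO 0.35 replicate 5 these differences were 0.93 (adjusted p = 7.53e-14) and 1.07 (adjusted p = 4.76e-16). Between R192 and Q192 the difference was 0.13 (95% interval -0.07 to 0.32, adjusted p = 0.634), and between KO-labelled and WT arrays 0.06 (95% interval -0.14 to 0.27, adjusted p = 0.999).

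The 2 array dates gave the same direction. Q192 exceeded WT by 0.71 within date 1 (adjusted p = 0.0722) and by 1.03 within date 2, and R192 exceeded WT by 0.89 (adjusted p = 0.0106) and 1.16. Against the arrays labelled KO, the 2 dates gave 0.62 (adjusted p = 0.225) and 0.98 in Q192, and 0.79 (adjusted p = 0.0405) and 1.11 in R192. No dose of CPO passed for Snord53, whose difference from vehicle was between -0.25 and 0.17 in WT and KO-labelled arrays. At 0.35 in the arrays labelled KO it was 0.17, with replicate 5 at 7.90 included.

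**Figure D1:**
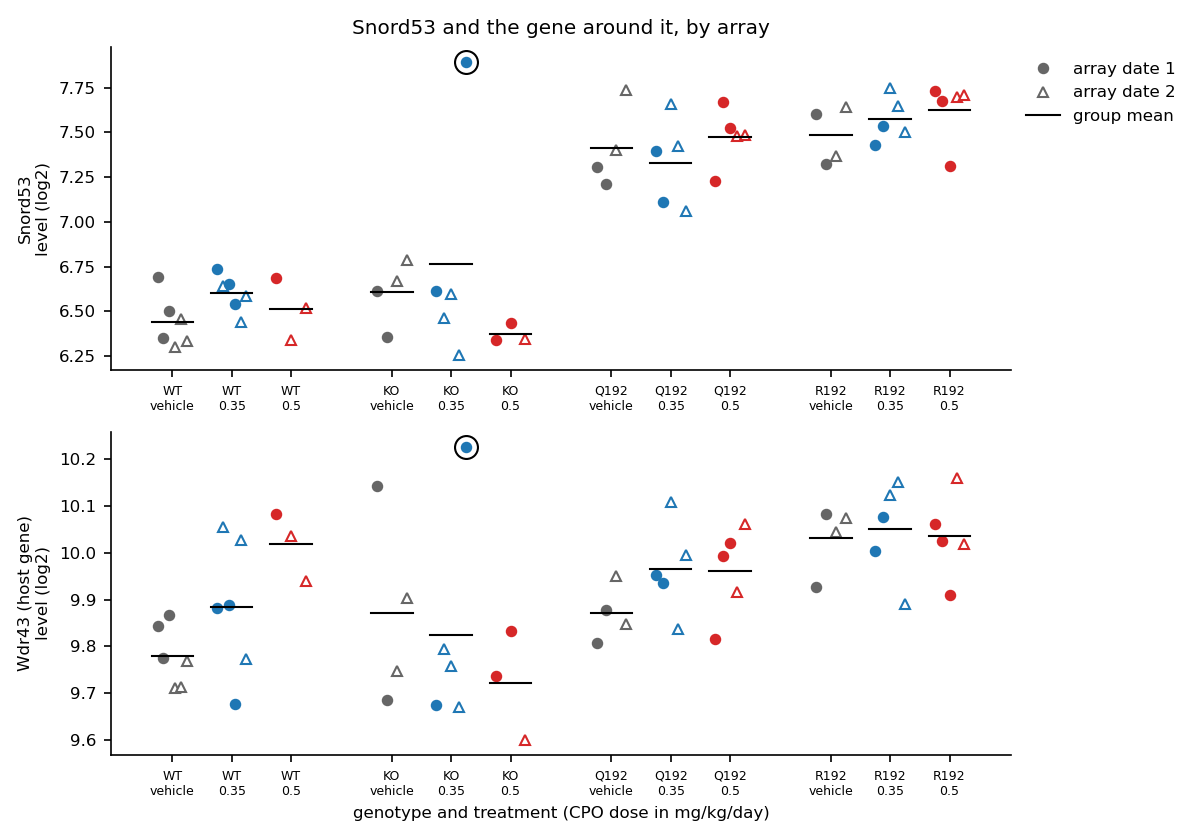
Log2 level of Snord53 (above) and of its host gene Wdr43 (below) on each array, by group. Filled circles are arrays of date 1, open triangles those of date 2, bars are group means and the ring marks KO 0.35 replicate 5; Snord53 lies at 6.25 to 6.79 in WT and the other KO-labelled arrays and at 7.06 to 7.75 in Q192 and R192.

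Wdr43 showed no such step. It was higher in R192 than in the arrays labelled KO by 0.22 (adjusted p = 0.00855), while its other genotype differences ran from -0.09 to 0.13 and did not pass. These include KO 0.35 replicate 5, which read 10.23, the highest KO-labelled array. The KO-labelled mean of Wdr43 was 9.81 ± 0.19 (SD, n = 12), and 9.78 ± 0.15 (SD, n = 11) without that array. Means were 9.87 in WT, 9.94 in Q192 and 10.04 in R192. Of the 16 measured genes nearest to Snord53, 8 on each side and looked at after the values were seen, 13 were tested. Besides Wdr43, 3 of them passed a genotype comparison. The muscle-structure gene Myom1 was higher in R192 than in WT by 0.25 (adjusted p = 0.00654) and than in the arrays labelled KO by 0.30 (adjusted p = 0.00123), and higher in Q192 than in the arrays labelled KO by 0.25 (adjusted p = 0.0203). KO 0.35 replicate 5 read 6.98 for Myom1, beside 6.27 to 6.43 in the other KO-labelled arrays. The KO-labelled mean of Myom1 was 6.41 ± 0.18 (SD, n = 12), and 6.36 ± 0.05 (SD, n = 11) without that array. Myl12a, a myosin light chain gene, was lower in R192 than in WT by 0.18 (difference -0.18, adjusted p = 0.0254) and than in the arrays labelled KO (-0.16, adjusted p = 0.0228). Ypel5 was higher in R192 than in the arrays labelled KO by 0.17 (adjusted p = 0.0171). A probe set inside an intron can also read unspliced host transcript, and the array does not separate these sources.

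**Figure D2:**
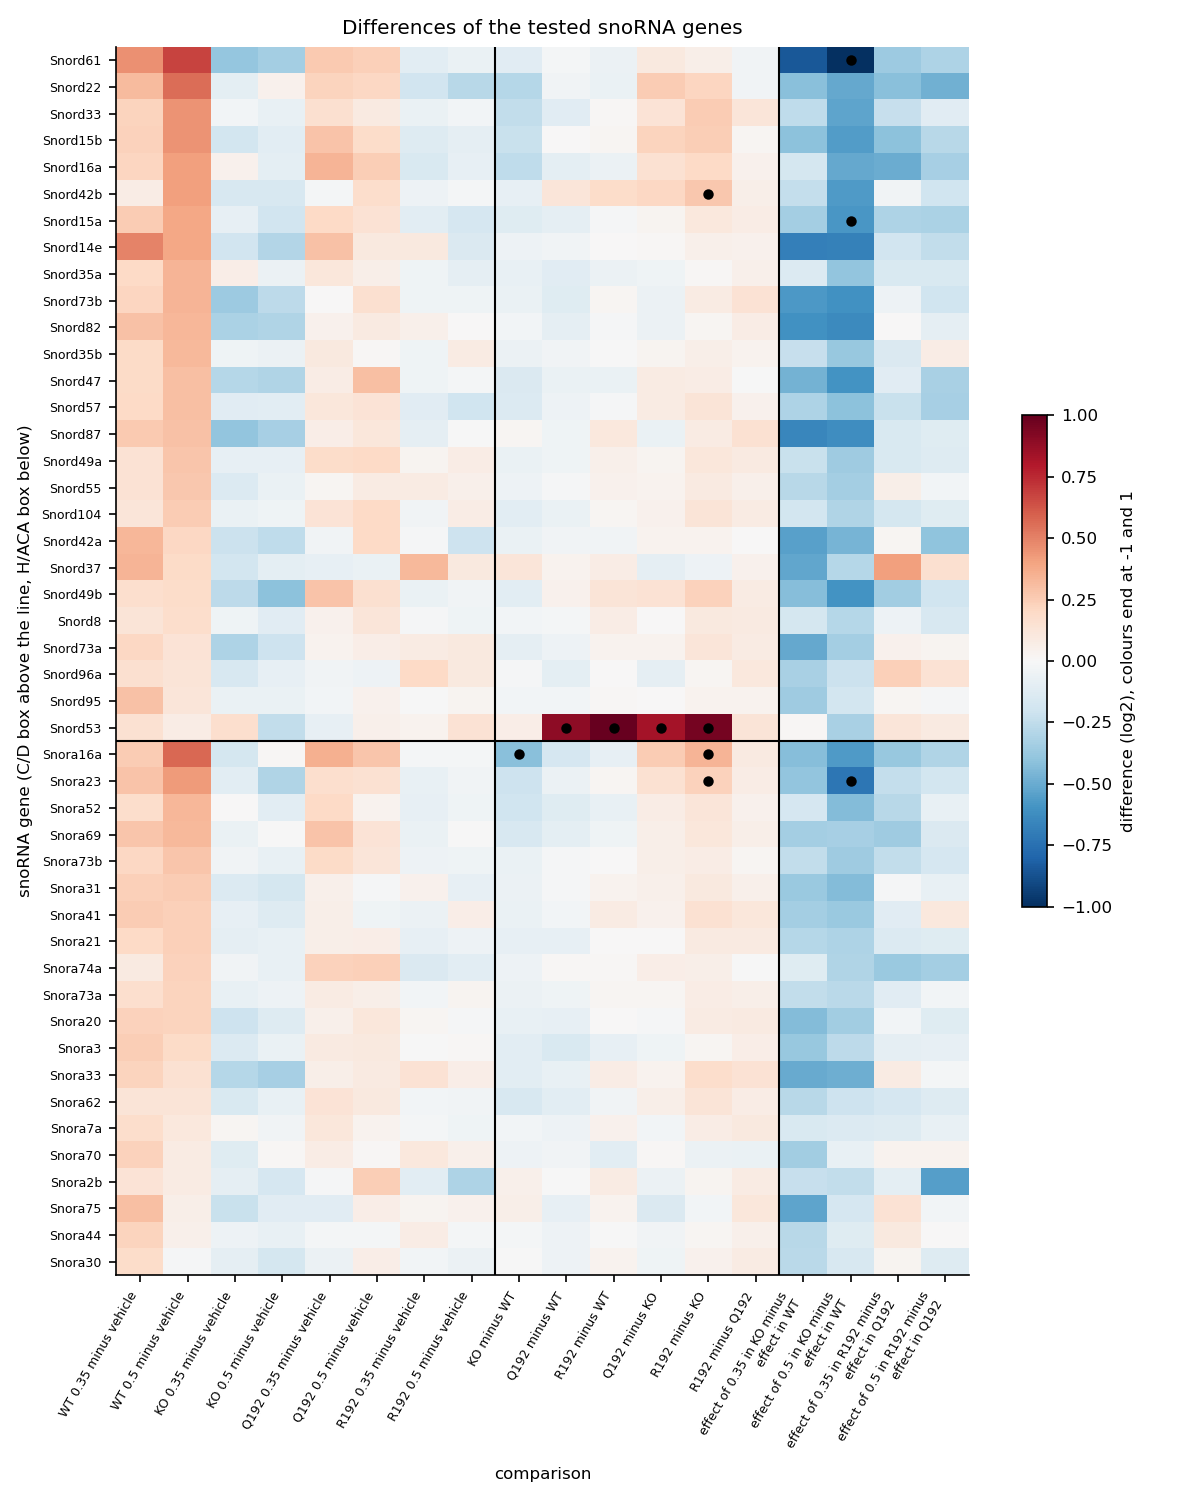
Differences in log2 level for the 46 tested snoRNA genes (rows, C/D above the line and H/ACA below) in 8 dose comparisons, 6 genotype comparisons and 4 differences of dose effects (columns). Colours end at -1 and 1, and black dots mark an adjusted p under 0.05; Snord53 holds 4 of the dots, and the WT dose columns are almost wholly above 0.

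The counts over the genotype comparisons were small. Between Q192 and WT 1 of 46 snoRNA genes passed, beside 0.455% of all genes, and between R192 and WT 1 of 46, beside 0.87%. Between Q192 and the arrays labelled KO 1 of 46 passed, beside 0.401%. In each of these it was Snord53. Between KO-labelled and WT arrays 1 of 46 passed, Snora16a, beside 0.375% of all genes. Between R192 and the arrays labelled KO 4 of 46 passed, beside 5.61% of all genes, all higher in R192, which is a share near the background. These were Snord53, Snora16a, Snord42b and Snora23.

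No snoRNA gene passed between R192 and Q192, where 0.0736% of all genes did. There 41 of 46 were above 0, beside 47.2% of all genes, and 1 had an unadjusted p under 0.05 in the higher direction, beside 4.31%. Among the smallest p-values, Snora7a differed by 0.10 (adjusted p = 0.484) and Snora33 by 0.14 (adjusted p = 0.512), and Snora70 by -0.07 (adjusted p = 0.647) and Snord61 by -0.04 (adjusted p = 0.914).

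Snora16a is an H/ACA box snoRNA within Snhg12, a host gene that makes no protein. WT arrays with vehicle ran from 8.39 to 9.00 with a median of 8.57, at 0.35 from 8.23 to 9.52 with a median of 8.88, and at 0.5 they read 9.15, 9.07 and 9.45. The arrays labelled KO read 8.46, 8.32, 8.71 and 8.55 with vehicle, 8.57, 8.88, 8.59, 8.17 and 7.72 at 0.35, and 8.42, 8.27 and 8.70 at 0.5. R192 arrays lay between 8.53 and 8.95. The 3 WT arrays at 0.5 stood above all of the arrays labelled KO, while the vehicle groups of these genotypes overlapped.

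Over treatments Snora16a averaged 8.82 ± 0.40 (SD, n = 15) in WT, 8.45 ± 0.31 (SD, n = 12) in the arrays labelled KO, 8.72 ± 0.30 (SD, n = 14) in Q192 and 8.79 ± 0.16 (SD, n = 14) in R192. It was lower in KO-labelled than in WT arrays by 0.42 (difference -0.42, SE 0.091, adjusted p = 0.0104). It was higher in R192 than in the arrays labelled KO by 0.34 (SE 0.089, adjusted p = 0.0172). KO 0.35 replicate 5 held its lowest value, and without that array the KO-labelled mean was 8.51 ± 0.21 (SD, n = 11), the difference from WT was -0.38 (adjusted p = 0.0218) and that of R192 was 0.29 (adjusted p = 0.0182). The difference from WT did not pass within either date alone, nor without the 3 arrays that read high for Xist (-0.37, adjusted p = 0.0687). The difference between R192 and the arrays labelled KO did not pass within either date alone, nor without the date covariate.

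Snord42b, a methylation guide for small-subunit ribosomal RNA, lies in the ribosomal protein gene Rpl23a. R192 arrays read 8.85, 9.18, 8.93 and 9.34 with vehicle, 9.00, 9.27, 8.84, 9.24 and 8.79 at 0.35, and 9.10, 9.08, 8.93, 9.16 and 9.01 at 0.5. The arrays labelled KO read 9.05, 8.73, 8.82 and 8.93, then 8.65, 8.80, 8.66, 8.56 and 8.94, and then 8.76, 8.96 and 8.52. The R192 values were mostly the higher ones, with overlap at each treatment. The mean was 9.05 ± 0.17 (SD, n = 14) in R192 and 8.78 ± 0.17 (SD, n = 12) in the arrays labelled KO, a difference of 0.27 (SE 0.072, adjusted p = 0.0219). Without KO 0.35 replicate 5 it was 0.29 (adjusted p = 0.00675), and it did not pass without KO 0.5 replicate 3, nor within either date alone.

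Snora23 lies in Ipo7, which encodes a nuclear import receptor. R192 arrays ran from 9.16 to 9.57. The arrays labelled KO read 9.53, 9.06, 9.10 and 9.12 with vehicle, 8.92, 9.09, 8.91, 9.08 and 9.55 at 0.35, and 8.76, 9.04 and 8.89 at 0.5. All but 2 of the KO-labelled arrays lay below the lowest R192 array. The mean was 9.31 ± 0.13 (SD, n = 14) in R192 and 9.09 ± 0.24 (SD, n = 12) in the arrays labelled KO, a difference of 0.23 (SE 0.071, adjusted p = 0.0482). Without KO 0.35 replicate 5 it was 0.28 (adjusted p = 0.00417). The call was lost in 20 of the 26 fits that left out 1 array of these genotypes, and within either date alone.

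**Figure D3:**
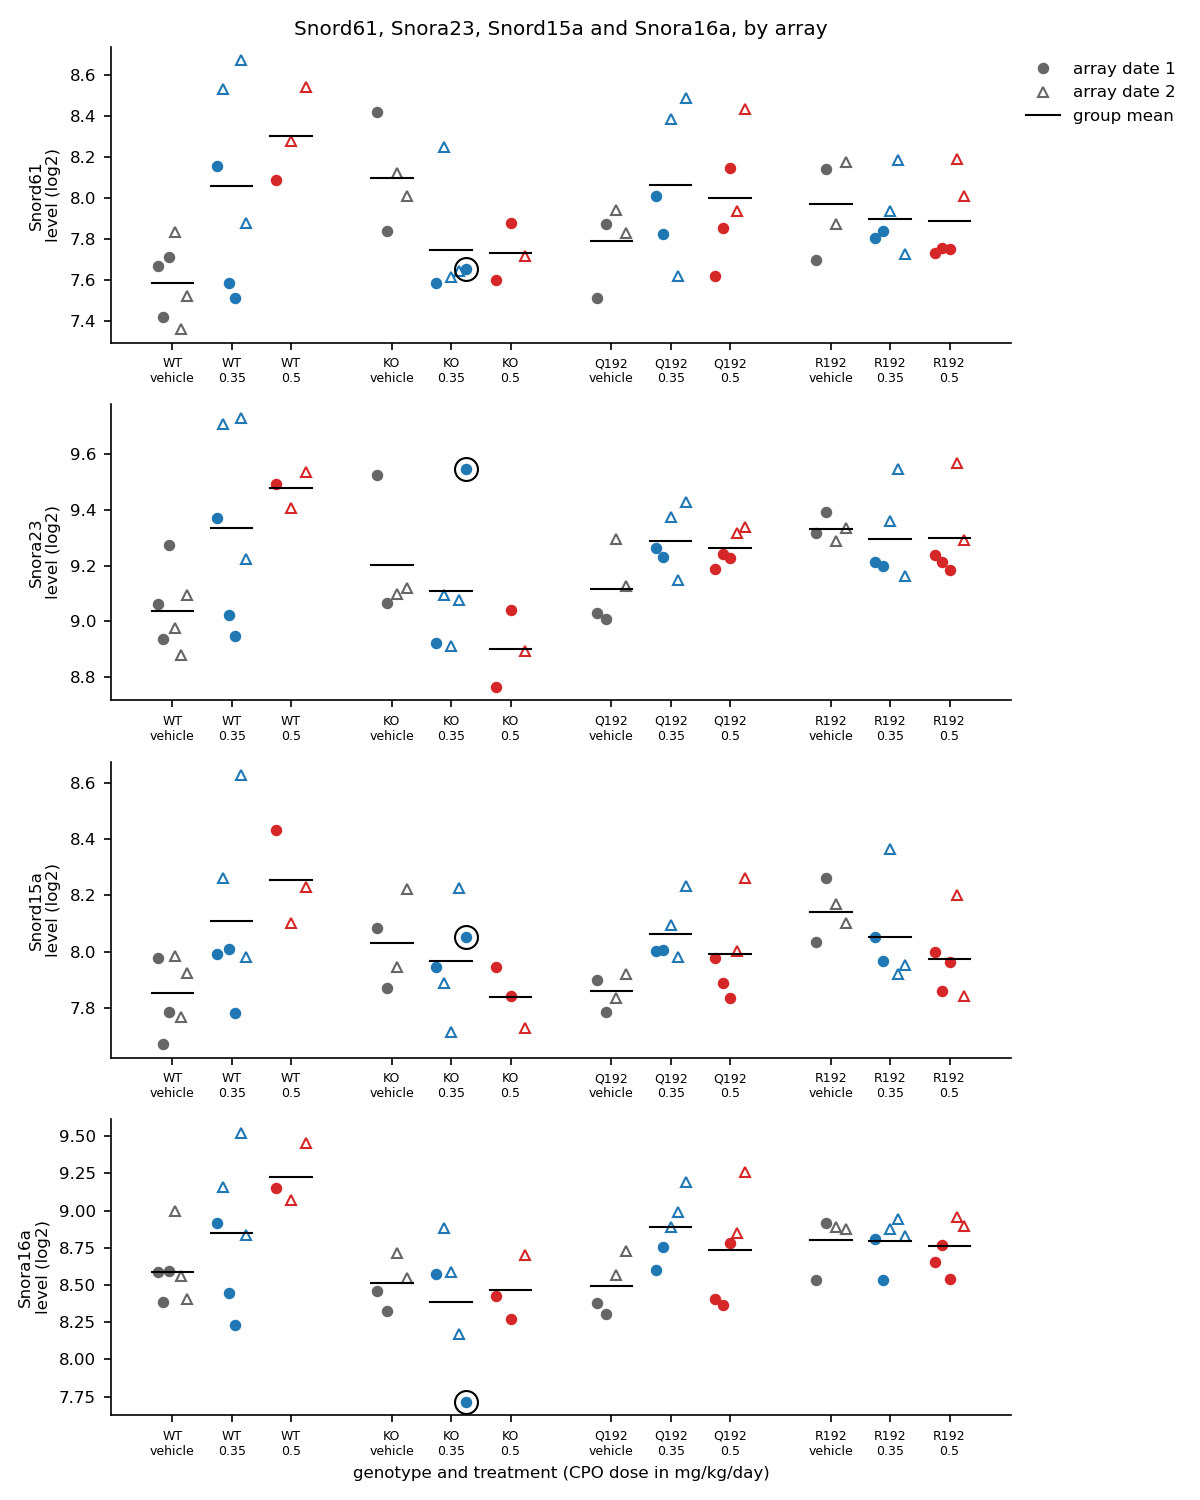
Log2 level of Snord61, Snora23, Snord15a and Snora16a on each array, by group. Filled circles are arrays of date 1, open triangles those of date 2, grey marks vehicle, blue 0.35 and red 0.5, bars are group means and the ring marks KO 0.35 replicate 5; in WT the 0.5 arrays lie above all vehicle arrays for each of these genes.

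Over any of the 12 groups, the moderated F test called 3 of 46 snoRNA genes, beside 4.21% of all genes. They were Snord53 (adjusted p = 6.78e-10), Snora16a (adjusted p = 0.0226) and Snord42b (adjusted p = 0.0481).

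In WT, snoRNA genes were nearly all higher with CPO than with vehicle, though none passed on its own at either dose. The mean of all 51 snoRNA genes per array was 7.70 ± 0.08 (SD, n = 6) with vehicle, 7.92 ± 0.21 (SD, n = 6) at 0.35 and 7.97 ± 0.06 (SD, n = 3) at 0.5. Vehicle arrays ran from 7.59 to 7.80 and the 0.5 arrays from 7.90 to 8.03, with no overlap. At 0.35 the arrays fell apart, replicates 1, 2 and 5 reading 7.99, 8.15 and 8.15 and replicates 3, 4 and 6 reading 7.74, 7.68 and 7.82. Replicates 1 and 2 also had the lowest marker means of the WT arrays for oligodendrocytes (11.59 and 11.10), brainstem and midbrain neurons (7.10 and 6.88) and microglia (7.48 and 7.44), while replicate 5 read 12.25, 7.74 and 7.89. The Purkinje means of replicates 1 and 2, 12.07 and 12.18, were the highest of the WT arrays, and their granule neuron means were 11.98 and 11.94. Replicate 5 read 11.55 and 11.24 for these lists. Replicates 1 and 2 share a description number, as do 3 and 4, and 5 and 6. In bulk tissue, fewer cells of a type and less RNA per cell cannot be told apart. Both doses share the vehicle arrays, so their values are not independent.

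At 0.5 in WT, 45 of 46 snoRNA genes were above 0, beside 46.4% of all genes. The members varied together within groups (median r of 0.41 between tested members, against 0 over all genes). Counts of members above or below 0, here and below, are therefore not counts of independent results. The median difference was 0.26, against -0.01 over all genes, and was 0.30 for C/D and 0.22 for H/ACA members. None passed, where 1.04% of all genes did, and 22 of 46 had an unadjusted p under 0.05 in the higher direction, beside 9.09%. In 11 members every 0.5 array exceeded every vehicle array, beside 5.69% of all genes. These were the methylation guides Snord15a, Snord15b, Snord42b, Snord49a and Snord61, the processing snoRNAs Snora73a, Snora73b and Snord22, and Snord73b, Snora16a and Snora23.

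Snord61, a guide within Rbmx, the gene of an RNA-binding protein, had the largest of these differences. WT vehicle arrays ran from 7.36 to 7.84 with a median of 7.60, and the 0.5 arrays read 8.09, 8.28 and 8.54. The groups did not overlap, and the difference was 0.67 (SE 0.187, adjusted p = 0.0591). For Snora16a the difference was 0.58 (SE 0.162, adjusted p = 0.0591). The single member below 0 was Snora30, in Srcap, at -0.01 (adjusted p = 0.97).

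At 0.35 in WT all 46 tested snoRNA genes were above 0, beside 47.6% of all genes, with differences from 0.07 to 0.49. The median was 0.22, against -0.01 over all genes. None passed, where 0.00669% of all genes did, and 19 of 46 had an unadjusted p under 0.05, beside 6.66%. Only Snora73b had every 0.35 array above every vehicle array among the tested members, beside 0.0803% of all genes, at 8.19 to 8.48 (median 8.31) against 8.07 to 8.18 (median 8.11). Its difference was 0.21 (SE 0.071, adjusted p = 0.127). Snord14e, in the chaperone gene Hspa8, ran from 9.68 to 10.71 with vehicle (median 10.23) and from 10.31 to 11.14 at 0.35 (median 10.72), which overlap, and differed by 0.49 (SE 0.167, adjusted p = 0.125). Snord95, in Rack1, differed by 0.29 (adjusted p = 0.125).

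The date and single arrays moved the WT values. Within date 1 the median at 0.35 was 0.10 and 40 members were above 0, and within date 2 it was 0.35 and all 46 were, 9 of them passing where 13.7% of all genes did. At 0.5 the within-date medians were 0.23 and 0.29. Of the WT 0.35 arrays, replicates 1 and 2 were among 3 in the series that read high for Xist, the RNA of the inactive X chromosome, and sex is not labelled. Without those 3 arrays, an alternative chosen after the data were seen, the median at 0.35 was 0.14, with 45 of 46 above 0, and at 0.5 it was 0.25. At 0.5, leaving out WT vehicle replicate 4, an array low in granule neuron and Purkinje markers, gave 7 calls (5.58% of all genes), and leaving out replicate 3 of that group gave 3 (2.53%). On the other side of this comparison, WT 0.5 replicate 2 was also low in these markers. At 0.35, leaving out WT 0.35 replicate 4 gave 7 calls (8.88% of all genes), and leaving out WT vehicle replicate 1 gave 1 (5.66%). The part of the cell type markers in these differences was not tested.

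**Figure D4:**
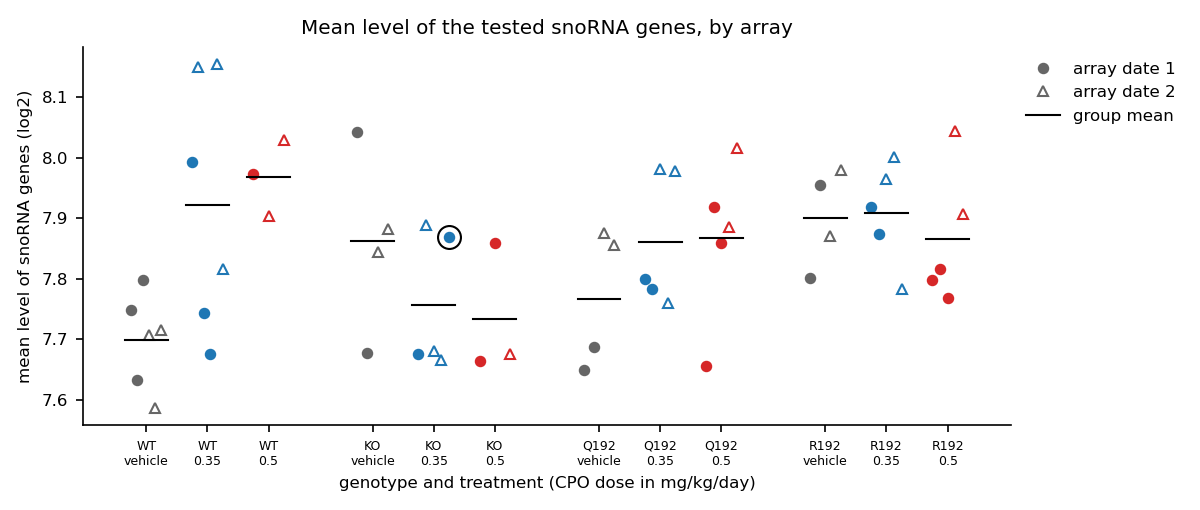
Mean log2 level of the 51 snoRNA genes on each array, by group, with the 5 under the filter included. Filled circles are arrays of date 1, open triangles those of date 2, bars are group means and the ring marks KO 0.35 replicate 5; the 3 WT arrays at 0.5 lie at 7.90 to 8.03, above the WT vehicle arrays at 7.59 to 7.80.

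In the arrays labelled KO the differences ran the other way and were smaller. The mean of all 51 snoRNA genes was 7.86 ± 0.15 (SD, n = 4) with vehicle, where arrays read 8.04, 7.68, 7.84 and 7.88. It was 7.76 ± 0.11 (SD, n = 5) at 0.35 and 7.73 ± 0.11 (SD, n = 3) at 0.5. These 3 groups overlapped. Their highest arrays were KO vehicle replicate 1, KO 0.35 replicate 2 and KO 0.5 replicate 2. For oligodendrocyte markers these read 11.51, 12.26 and 11.60, against 12.20 to 12.29, 11.96 to 12.52 and 12.34 to 12.36 in their fellows. For microglia markers they read 7.57, 7.85 and 7.50, against 7.74 to 7.86, 7.73 to 7.92 and 7.70 to 7.93. The part of the cell type markers here was not tested. At 0.35, 41 of 46 members were below 0, beside 41.2% of all genes, with a median of -0.11 against 0.03. The median was -0.17 without KO 0.35 replicate 5 and -0.05 without KO vehicle replicate 1. None passed, as for all genes (0%), and 5 had an unadjusted p under 0.05 in the lower direction, beside 2.59%. Snord61 differed by -0.39 and Snord73a by -0.31 (adjusted p = 0.66 for both), and Snord53 by 0.17 (adjusted p = 0.725) and Snord35a by 0.07 (adjusted p = 0.821). The Snord53 value includes KO 0.35 replicate 5 at 7.90, beside 6.25 to 6.62 in its fellows and 6.36 to 6.79 with vehicle.

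At 0.5 in the arrays labelled KO, 43 of 46 were below 0, beside 43.3% of all genes, again with a median of -0.11 against 0.03. The median was -0.18 without KO 0.5 replicate 2, and -0.05 without KO 0.5 replicate 3 and without KO vehicle replicate 1. None passed, as for all genes (0%), and 3 had an unadjusted p under 0.05 in the lower direction, beside 5.63%. These were Snora33 at -0.34, Snord49b at -0.41 and Snora23 at -0.30 (adjusted p = 0.387 for each). Snora23 had every 0.5 array below every vehicle array, beside 3.59% of all genes. The higher members of smallest p were Snord22 at 0.05 (adjusted p = 0.928) and Snora70 at 0.01 (adjusted p = 0.966).

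The effect of CPO in the arrays labelled KO was compared with that in WT directly. At 0.5 the effect was lower in the arrays labelled KO for all 46 tested snoRNA genes, beside 42.8% of all genes, with a median difference of -0.36. It was lower with an unadjusted p under 0.05 in 22, beside 14.1%, and passed in 3 of 46, beside 9.2% of all genes, so the calls were no more frequent than the background. The 3 were Snord61 at -1.02 (SE 0.274, adjusted p = 0.037), Snora23 at -0.72 (SE 0.190, adjusted p = 0.037) and Snord15a at -0.58 (SE 0.179, adjusted p = 0.0412). All 3 calls were lost without any 1 of 8 arrays, where no gene at all passed, and 9 members passed without KO vehicle replicate 2, beside 19.9% of all genes.

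The arrays behind these 3 lay higher at 0.5 than with vehicle in WT and not in the arrays labelled KO. For Snord61 the arrays labelled KO read 8.42, 7.84, 8.12 and 8.01 with vehicle and 7.60, 7.88 and 7.72 at 0.5, beside the WT values above. The lowest of these vehicle arrays was level with the highest WT vehicle array, and the other 3 were above it. For Snora23, WT arrays ran from 8.88 to 9.27 (median 9.02) with vehicle and read 9.49, 9.41 and 9.53 at 0.5, while the KO-labelled values are given above. For Snord15a, a guide within Rps3, WT vehicle arrays ran from 7.67 to 7.98 (median 7.85) and the 0.5 arrays read 8.43, 8.10 and 8.23. The arrays labelled KO read 8.08, 7.87, 7.95 and 8.22 with vehicle and 7.95, 7.84 and 7.73 at 0.5, which overlap.

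At 0.35 the effect was lower in the arrays labelled KO than in WT for 45 of 46 members, beside 43.5% of all genes, with a median difference of -0.34. In 28 of 46 the unadjusted p was under 0.05, beside 8.96%, and none passed, beside 0.00669%. Snord61 differed by -0.85 (SE 0.232, adjusted p = 0.0756) and Snord53 by 0.01 (adjusted p = 0.982). Without KO 0.35 replicate 5, 18 members passed, beside 16.6% of all genes, the median was -0.37 and all 46 were lower. Within date 1 the median was -0.20 and within date 2 it was -0.48.

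In Q192 no snoRNA gene passed at either dose, as for all genes (0% in both). At 0.35, 36 of 46 were above 0, beside 50.3% of all genes, with a median of 0.08, and 5 had an unadjusted p under 0.05 in the higher direction, beside 1.42%. Snora74a differed by 0.23 and Snora73b by 0.19, and Snora75 by -0.11 and Snord37 by -0.09 (adjusted p = 0.999 for each). The median was 0.12 without Q192 0.35 replicate 4 and without Q192 vehicle replicate 3. Snora69 and Snord15a had every 0.35 array above every vehicle array, beside 0.702% of all genes. At 0.5, 41 of 46 were above 0, beside 48.8%, with a median of 0.10 (0.15 without Q192 0.5 replicate 1), and 3 had an unadjusted p under 0.05 in the higher direction, beside 5.44%. Snora74a differed by 0.24 (adjusted p = 0.337), Snora2b by 0.24 (adjusted p = 0.37), Snord96a by -0.05 (adjusted p = 0.869) and Snord37 by -0.06 (adjusted p = 0.871).

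In R192 no snoRNA gene passed at either dose, as for all genes (0% in both), and medians were near 0, with a sign that changed in 2 of 22 alternatives at 0.35 and 3 of 22 at 0.5. At 0.35, 32 of 46 were below 0, beside 45.1% of all genes, with a median of -0.03. Snord37 alone had an unadjusted p under 0.05 in the higher direction, at 0.32 (adjusted p = 0.921), beside 2.47% of all genes, and Snord96a, at 0.20, was without overlap, beside 1.96%. Snora74a differed by -0.14 and Snord57 by -0.11. At 0.5, 30 of 46 were below 0, beside 47.4%, again with a median of -0.03, and 2 had an unadjusted p under 0.05 in the lower direction, beside 0.609%. These were Snora2b at -0.31 and Snord57 at -0.20, beside Snord96a at 0.10 and Snord35b at 0.08.

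The difference of the dose effect between R192 and Q192 passed in no snoRNA gene at either dose, as for all genes (0% in both). At 0.35, 4 members had an unadjusted p under 0.05 in the lower direction, beside 1.85% of all genes, and at 0.5, 3 did, beside 2.4%. Snora74a differed by -0.37 and Snora73b by -0.25 at 0.35, where Snord37 stood at 0.41 and Snord96a at 0.24 (adjusted p = 0.766 for each). At 0.5 Snora2b differed by -0.55 and Snord57 by -0.33 (adjusted p = 0.672 for both), Snord96a by 0.15 (adjusted p = 0.789) and Snord37 by 0.16 (adjusted p = 0.815).

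On the mean of the 4 genotypes no member passed at either dose, as for all genes (0% in both). At 0.35, 40 of 46 were above 0, beside 55.3% of all genes, and 0 had an unadjusted p under 0.05, beside 1.83%. At 0.5, 39 were above 0, beside 50.6%, and 2 had an unadjusted p under 0.05 in the higher direction, beside 2.22%. At 0.5 these were Snora16a at 0.21 and Snord49a at 0.12 (adjusted p = 0.991 for both), with Snora30 at -0.04 and Snora2b at -0.04 on the lower side (adjusted p = 0.992 for both). At 0.35 the values of smallest p were 0.08 for Snora73b, 0.17 for Snord14e, -0.04 for Snord42b and -0.05 for Snord73b (adjusted p = 1 for each).

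The host genes were looked up in the RefSeq gene table of GRCm38.p6 as the gene whose limits enclose the snoRNA. Ribosomal protein genes held 21 members, other protein genes 17, and genes without protein 12, and Snord118 had none. The hosts numbered 40, and 10 of them held 20 members together. Members in Snhg or Gas5 genes were Snora16a and Snora44 (Snhg12), Snora73a and Snora73b (Snhg3), Snora74a (Snhg4), Snord22 (Snhg1), Snord87 (Snhg6) and Snord47 (Gas5). Levels could be set beside those of 24 measured hosts, which hold 28 members.

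Start sites are shown for 5 of the 6 hosts of the members that passed a comparison, all but Rpl23a, the host of Snord42b, since snoRNA host genes often begin within a run of pyrimidines. Each line gives 60 bases from RefSeq (GRCm38.p6), 40 before the start and 20 from it on, with capitals on an unbroken run of C or T at the start.
Wdr43 (host of Snord53), chr17:71616175-71616234, plus strand: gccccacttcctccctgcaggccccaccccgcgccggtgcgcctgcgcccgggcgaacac
Snhg12 (host of Snora16a), chr4:132308638-132308697, plus strand: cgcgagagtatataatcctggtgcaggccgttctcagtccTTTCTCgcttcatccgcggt
Ipo7 (host of Snora23), chr7:110018275-110018334, plus strand: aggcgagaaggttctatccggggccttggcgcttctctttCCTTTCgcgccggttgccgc
Rbmx (host of Snord61), chrX:57393017-57393076, minus strand: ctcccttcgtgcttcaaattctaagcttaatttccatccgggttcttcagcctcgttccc
Rps3 (host of Snord15a), chr7:99483690-99483749, minus strand: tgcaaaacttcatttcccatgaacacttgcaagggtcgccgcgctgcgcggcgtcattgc

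The letters searched were a C at the annotated start within an unbroken run of at least 5 C or T, read on the gene's strand. Of 33 annotated starts of 31 hosts, 6 held it (18.2%), beside 2.51% of the 32851 starts in the table. Ipo7 held it, Snhg12 had a run that begins with T, and Wdr43, Rbmx and Rps3 had none at the annotated start. These matches describe the annotated letters only.

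The hosts of the members that passed did not pass alike. Between R192 and the arrays labelled KO, Rps3 was higher by 0.26 (adjusted p = 0.00123) and Rpl23a by 0.17 (adjusted p = 0.0175), while Ipo7 differed by 0.07 (adjusted p = 0.35) and Rbmx by -0.03 (adjusted p = 0.846). In the effect of 0.5 in the arrays labelled KO minus that in WT, Rpl23a was lower, at -0.40 (adjusted p = 0.0385), while Ipo7 stood at -0.24 (adjusted p = 0.156), Rps3 at -0.28 (adjusted p = 0.138) and Rbmx at -0.29 (adjusted p = 0.195). Of the 24 measured hosts, 9 were higher in R192 than in the arrays labelled KO, beside calls in 5.61% of all genes, and 7 had a lower effect of 0.5 there than in WT, beside 9.2%, with a median of -0.28. In WT at 0.5, 1 host passed, beside 1.04% of all genes, Srcap, which was lower, and the median over hosts was 0.17.

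Levels of a snoRNA and its host moved together in part of the pairs. Correlations were taken over 55 arrays on the residuals from group means and array date, with permutation p-values adjusted over the 28 pairs. The median r with the own host was 0.29, against 0.14 with the hosts of other members. In 15 of the 28 pairs r with the own host was above the median r with the other hosts. Of the 28, 13 had an adjusted p under 0.05, 12 above 0 and 1 below.

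The closest pair was Snora23 and Ipo7, with r = 0.72 and rho = 0.62 (permutation p = 1e-05, the smallest that the permutations can give, adjusted p = 0.00014). Without the 2 arrays farthest from the median r was 0.64, and it was 0.69 and 0.75 within the dates. Snord82 and Ncl, the gene of nucleolin, had r = 0.62, and Snord73b and Rps3a1 had r = 0.54. For Snord53 and Wdr43 r was 0.59, and 0.44 without 2 arrays, with 0.74 on date 1, the date of KO 0.35 replicate 5, and 0.33 on date 2. The pair below 0 was Snora62 and Rpsa, with r = -0.41 and rho = -0.42 (permutation, adjusted p = 0.00641), and with -0.52 and -0.33 within the dates.

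Among themselves the snoRNA genes also varied together on these residuals. Over the 1035 pairs of tested members the median r was 0.41, with 104 pairs below 0, while the median between pairs of all genes was 0. It was 0.39 between C/D members, 0.48 between H/ACA members and 0.39 across the classes. Across 9 pairs that share a host the median was 0.59, from -0.05 for Snora16a and Snora44 to 0.73 for Snord73a and Snord73b among the pairs named here. Snora23 had the highest median r with the other members, at 0.57, and Snord55 the lowest, at 0.03. The genes share the same arrays and their normalisation, so these values are a description.

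Array date went with the level of several snoRNA genes, a comparison made after the values were seen. Of 46 members, 10 passed between date 2 and date 1, beside 0.1% of all genes, and all 10 were higher on date 2. The shift was not confined to snoRNA genes. The small RNA genes Rnu12 (0.23, adjusted p = 0.000408) and Rny3 (0.21, adjusted p = 7.19e-05) were also higher on date 2. Of the remaining genes that passed, Spcs1 was higher (0.12, adjusted p = 0.0259). Tedc2 (-0.10, adjusted p = 0.0124) and Zfp747 (-0.14, adjusted p = 0.0318) were lower. Snord16a, a guide within Rpl4, ran from 8.51 to 9.49 on date 1 (median 8.98) and from 8.95 to 10.27 on date 2 (median 9.57), a difference of 0.57 (SE 0.066, adjusted p = 3.42e-07). Snord33, within Rpl13a, ran from 8.36 to 9.51 on date 1 (median 8.88) and from 8.83 to 10.05 on date 2 (median 9.43), a difference of 0.49 (adjusted p = 1.74e-06). The dates overlapped in both genes, with most arrays of date 2 above the median of date 1.

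The other 8 were Snord47 at 0.40 (adjusted p = 0.0188), Snora16a at 0.32 (adjusted p = 0.0066), Snord49b at 0.32 (adjusted p = 0.0128), Snord57 at 0.20 (adjusted p = 0.00654), Snord35b at 0.18 (adjusted p = 0.0109), Snord15b at 0.29, Snord104 at 0.24 and Snord35a at 0.23. The median over all members was 0.03, and 27 of 46 were higher on date 2, so the difference lay in part of the class. Of the 6 members with the largest within-group SD, 4 were among these 10, an overlap that follows in part from the measure. That SD is taken around group means alone, and every group holds arrays of both dates.

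**Figure D5:**
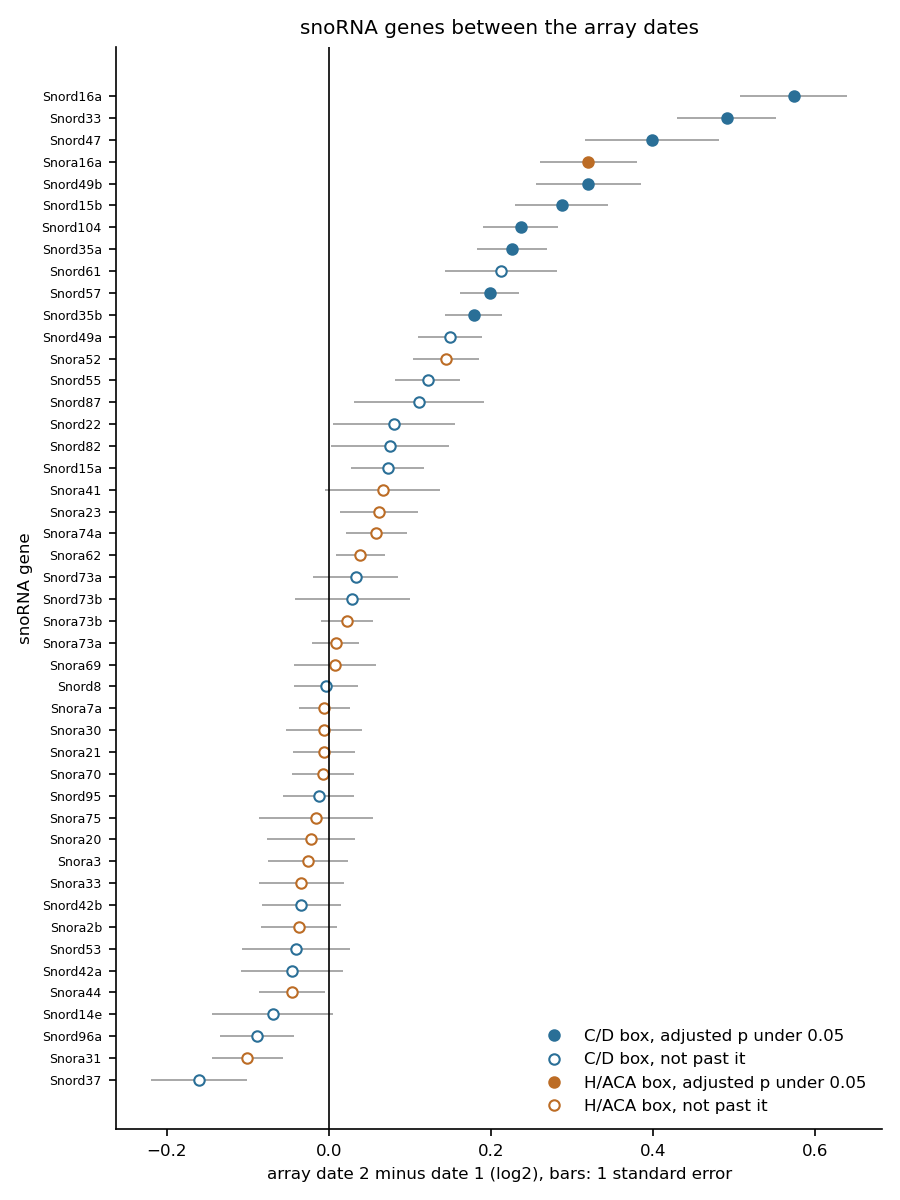
Difference in log2 level between array date 2 and date 1 for each tested snoRNA gene, with bars of 1 SE. Blue symbols are C/D and brown H/ACA members, and filled symbols mark an adjusted p under 0.05; 10 of 46 are filled, all to the higher side, led by Snord16a at 0.57 and Snord33 at 0.49.

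The proteins that work with snoRNAs were mostly without calls. Over all genes, 5.61% passed between R192 and the arrays labelled KO and 1.04% in WT at 0.5. In the effect of 0.5 in the arrays labelled KO minus that in WT, 9.2% did. Of 5 C/D box partners, Nop58, a core protein of the C/D particle, was higher in R192 than in the arrays labelled KO by 0.22 (adjusted p = 0.0474), and its effect of 0.5 was lower there than in WT (-0.56, adjusted p = 0.0456). Of 4 H/ACA box partners, Nop10, a core protein of that particle, had a lower effect of 0.5 in the arrays labelled KO than in WT (-0.58, adjusted p = 0.0385). Of 11 assembly factors, Nolc1, a nucleolar chaperone of snoRNA particles, was lower in WT at 0.5 by 0.35 (difference -0.35, adjusted p = 0.0355) and in R192 against the arrays labelled KO (-0.17, adjusted p = 0.0284). Ruvbl2, an ATPase of the assembly machinery, had a higher effect of 0.5 in the arrays labelled KO than in WT (0.47, adjusted p = 0.0479). Over these 3 lists the median difference at 0.5 in WT was 0.09, 0.20 and -0.05.

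Host genes without protein gave 1 call of 6 tested, Gas5, in the effect of 0.5 between KO-labelled and WT arrays (-0.66, adjusted p = 0.038), beside 9.2% of all genes. Of 10 other small RNA genes tested, Scarna17, a Cajal body RNA, was higher in R192 than in the arrays labelled KO (0.27, adjusted p = 0.00954), beside calls in 5.61% of all genes. Their median at 0.5 in WT was 0.26, equal to that of the snoRNA genes, while that of 148 microRNA genes was 0.02. Of 15 nucleolus and RNA polymerase I genes, 3 were higher and 1 lower in R192 than in the arrays labelled KO, beside calls in 5.61% of all genes.

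Ribosomal protein genes, which host 21 of the members, moved in the same comparisons. At 0.5 in WT 3 of 54 tested rose (Rpl36a, Rpl38 and Rps14), beside calls in 1.04% of all genes, 53 were above 0 and the median was 0.25. Between R192 and the arrays labelled KO 25 of 54 were higher, beside calls in 5.61% of all genes, with a median of 0.16, against 0.09 for the snoRNA genes. In the effect of 0.5 in the arrays labelled KO minus that in WT, 17 were lower, beside calls in 9.2% of all genes, with a median of -0.32. Whether these differences bear on those of the snoRNA genes was not tested.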

How the data were processed

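Total RNA from cerebellum was hybridised to 55 arrays. The deposited values are taken as log2 levels, and per the submitters' processing notes came from Affymetrix Expression Console 1.1 with RMA, which corrects background, normalises arrays to each other and summarises probes. The genome build behind the probe sets was not named. Array medians lay between 7.37 and 7.54, and no further normalisation was applied. Of 35557 probe sets, the 21789 with 1 symbol gave 19938 genes, and those above the 25th percentile of mean level were tested, leaving out 3 sex-linked genes.

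Tests used limma 3.58.1 in R 4.3.3 (eBayes with trend), with 12 group means, array date and a correlation of 0.131 between arrays sharing a description number (36 numbers, 17 of them on more than 1 array, meaning not labelled). The fit had 42 residual degrees of freedom and gave 20 comparisons and an F test. It was also run on simulated data. The alternatives comprised 68 fits, 55 of them leaving out 1 array. Host genes come from a table without strand, so a host on the opposite strand is possible. The motif search and figures used Python 3.11.15. Kinase genes named Rps6k were not counted as ribosomal protein genes.

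The members and gene lists were chosen with earlier results of these data known. Genes named are the members past the threshold in any comparison, the 2 higher and 2 lower of smallest p where none passed, the 8 highest, 5 lowest and 6 most variable, those with several probe sets and those in Snhg or Gas5 genes, and list members past the threshold. Others were named after their values were seen. Replicate numbers were not taken to pair the arrays in the main fit. Deviations of arrays with the same number had a median correlation of 0.09 over 32 pairs, 16 of them above 0.1. With different numbers the median was -0.04 over 134 pairs, 48 of them above 0.1.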

Additional observations from a re-analysis of the deposited data

Results flagged for a closer look

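In 70 sets of a named snoRNA gene in a group of 4 to 6 arrays, 8 held an array far from the others, and chance flags about 1 in 20 such groups. Snord53 read 7.90 in KO 0.35 replicate 5, above its group, and 7.31 in R192 0.5 replicate 3, below its group. Snora16a read 9.00 in WT vehicle replicate 4 and 8.53 in R192 vehicle replicate 1. Snora23 read 9.53 in KO vehicle replicate 1, 9.55 in KO 0.35 replicate 5 and 9.57 in R192 0.5 replicate 4, each the highest of its group. Snord61 read 8.25 in KO 0.35 replicate 2.

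The effect of 0.5 differed between the arrays labelled KO and WT by the test of the difference itself in 3 snoRNA genes. The differences were -1.02 for Snord61, -0.72 for Snora23 and -0.58 for Snord15a on the log2 scale (limma, adjusted p = 0.037, 0.037 and 0.0412). Each call was lost in 8 or more of the 16 fits that left out 1 of the arrays involved.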

How the results depend on the processing

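The higher level of Snord53 in Q192 and R192 kept its direction under every alternative that tested it, and a filter at the 50th percentile left it untested. Counts of called snoRNA genes that moved are given next, out of 46 unless stated. The share of all genes called in the same fit is given below only for leaving out 1 array. The other counts stand without that share, so a higher count need not be particular to snoRNA genes. Without the date covariate they were 0 for KO minus WT, 2 for R192 minus KO and 1 for the F test. Without the correlation of description numbers they were 9 for WT 0.5, 1 and 5 for the KO minus WT difference of effects at 0.35 and 0.5. On date 1 alone they were 0 for KO minus WT, Q192 minus WT, Q192 minus KO, the difference of effects at 0.5 and the F test, and 1 for R192 minus KO. On date 2 alone they were 9 for WT 0.35, 0 for KO minus WT, 1 for R192 minus KO, 3 and 0 for the difference of effects at 0.35 and 0.5, and 1 for the F test. With arrays centred the F test gave 1. With the filter at the 50th percentile (26 members) they were 3 for WT 0.5, 0 for Q192 minus WT, R192 minus WT and Q192 minus KO, and 8 for the difference of effects at 0.5. With array quality weights they were 18 for WT 0.5, 1 for the mean of genotypes at 0.5, 5 for KO minus WT, 2 for R192 minus WT, 5 for Q192 minus KO, 19 for R192 minus KO, 12 for the difference of effects at 0.5 and 20 for the F test. Chosen after the data were seen, leaving out the 3 arrays of high Xist gave 2 for WT 0.5 and 0 for KO minus WT and for the difference of effects at 0.5. Leaving out KO 0.35 replicate 5 as well gave 7, 0 and 5 for these, 7 for R192 minus KO and 5 for the F test.

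With the replicate block, 1 member passed in KO minus WT, Q192 minus WT, R192 minus WT and Q192 minus KO, 3 in R192 minus KO (Snora23 was lost, 0.22, adjusted p = 0.0673), 4 in the difference of effects at 0.5, 2 in the F test and 0 elsewhere. Leaving out 1 array at a time gave 0 to 7 for WT 0.35 and for WT 0.5, with 8.88% and 5.58% of all genes at the highest. It gave 1 to 2 for KO minus WT (0.361% of all genes at 2) and 2 to 6 for R192 minus KO (2.44% at 2). The difference of effects gave 0 to 18 at 0.35 (16.6% at 18) and 0 to 9 at 0.5 (19.9% at 9). The F test gave 1 to 5 (12.2% at 5). The causes were not tested. The values carry no detection call, so whether the 5 members under the filter on low levels were above background is not known.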
